A study of Homo sapiens with 18 samples.

Results

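The response of NCI-H211 cells to a guide against POU2F3 was compared between cells given wild-type POU2F3 cDNA and cells given an empty vector, in 12 of the 18 libraries of the study. For each gene the measure was a difference of responses on the log2(TPM + 1) scale, where TPM is the length-scaled share of transcripts: sgPOU2F3 minus sgRosa in the cells with cDNA, less sgPOU2F3 minus sgRosa in the cells without it. It was computed for the 13210 genes, of 19745 in the table, that averaged 1 TPM or more across these libraries. NCI-H211 is a human cell line from small cell lung cancer, of the tuft-cell-like kind. All cells carried Cas9 and a stable construct, either an empty vector (EV cells) or wild-type POU2F3 cDNA that the guide does not cut (WT cells). Lentivirus with sgPOU2F3, which targets the endogenous gene, or with sgRosa, the control guide, was put on each line in 3 separate infections, and poly(A) RNA was sequenced from day 5. The 4 groups, of 3 libraries each, were EV sgRosa, EV sgPOU2F3, WT sgRosa and WT sgPOU2F3. The other 6 libraries carried a mutant cDNA and were used only in an alternative estimate of the spread. There was 1 stable line per construct, so p-values measured the spread between infections of a line and not between independently made lines.

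POU2F3 is a POU-domain transcription factor that binds the octamer DNA motif and is required for tuft cells, rare chemosensory epithelial cells of the airway and gut. It acts with small coactivators of the OCA family, encoded by C11orf53 (also called POU2AF2), COLCA2 (POU2AF3) and POU2AF1. Tuft cells use the signalling machinery of taste buds: bitter receptors act through gustducin, phospholipase C beta and the TRPM5 cation channel, and RGS proteins limit the G-protein signal. Re-expressing a guide-resistant cDNA is the usual way to ask which effects of a guide come from loss of its target. A response called smaller in WT cells is termed reduced below.

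One library stood apart. WT sgPOU2F3 replicate 1 had a median of 12.4 TPM over the genes tested, against 18.3 to 26.01 in the other 11, and its 100 most abundant genes took 43.5% of TPM, against 25.3% to 35.7%. Cytosolic ribosomal proteins took 31.2% of its TPM and 24.2% and 25.2% in the other WT sgPOU2F3 libraries, against 15.03% to 21.5% in the other 9. Its levels, against the mean of the other replicates of its group, changed by -0.134 log2 per doubling of transcript length. The same measure was -0.075 to 0.103 in the other libraries. Replicates were measured against each other, so values within a group depend on each other. The tuft identity of the line was seen in AVIL (815, 822 and 1000.2 TPM in the EV sgRosa libraries), TRPM5 (261, 229 and 329.7) and GNG13 (304, 279.5 and 369.6), with PTGS1, ASCL2, GFI1B, SH2D6, CHAT and BMX all above 18 TPM there. Not every tuft marker was present. Of 26 structural and surface markers listed, 8 were under 1 TPM in all 12 libraries, 3 of them at 0, and 17 were tested. DCLK1 was low, with its values given below. Every TPM column had the same total, so a few abundant genes can lower all others, and read depth was unknown. Results are therefore given with and without that library, and beside the median of all genes tested where the scale matters.

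The guide lowered POU2F3 mRNA in both lines, but WT cells started higher and stayed above the EV control level. POU2F3 (chr11:120236640-120319944, plus strand in GRCh38) was at 682, 654 and 853 TPM in the EV sgRosa libraries, 253, 318 and 274 in the EV sgPOU2F3 libraries, 1701, 1881 and 1796 in the WT sgRosa libraries and 1136, 1276 and 1049 in the WT sgPOU2F3 libraries. No library of WT sgPOU2F3 was below the highest EV sgRosa library. On the log2 scale POU2F3 fell by 1.37 in EV cells (limma adjusted p = 1.16e-05) and by 0.64 in WT cells (adjusted p = 0.0109), a difference of 0.73 ± 0.17 (SE, n = 3 per group, limma adjusted p = 0.0162). The values count transcripts of the endogenous gene and of the cDNA together, so they do not show how much endogenous mRNA was left. With median-ratio scaling, in which each library is divided by its median ratio to a common reference, the fall in WT cells was 0.19 and did not pass (adjusted p = 0.387).

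C11orf53, the partner coactivator of highest level, also fell less in WT cells (by 0.38 log2) than in EV cells (by 1.09). Unlike POU2F3, C11orf53 was not called higher in WT than in EV cells under sgRosa (0.10, limma adjusted p = 0.477). It was at 589, 589.6 and 623 TPM under sgRosa and 285, 282 and 281 under sgPOU2F3 in EV cells, and 720.0, 611 and 602 and 470.1, 486 and 521 in WT cells. The WT sgPOU2F3 libraries lay between the EV groups without overlap. The difference of responses was 0.70 ± 0.12 (limma adjusted p = 0.00253). COLCA2 fell by 0.90 in EV cells, and its difference of 0.48 did not pass with all libraries (adjusted p = 0.219) and did without WT sgPOU2F3 replicate 1 (0.70, adjusted p = 0.0371). POU2AF1 was at 0.127 to 1.92 TPM in the 12 libraries with a difference of 0.12 (adjusted p = 0.851), and POU2F2 was under the level tested. POU2F1, the ubiquitous octamer factor, had a difference of -0.40 (adjusted p = 0.376).

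Most genes that rose in EV cells rose less in WT cells, whereas the share of falls that was smaller depended on the scaling. The difference of responses was called (limma adjusted p under 0.05) for 766 genes, 5.8% of those tested, as higher in WT cells and for 1599, 12.1%, as lower, and the median of all genes was -0.26. Without WT sgPOU2F3 replicate 1 these were 906 (6.86%) and 1749 (13.2%) with a median of -0.11, and with median-ratio scaling, which brings that median to 0.00, they were 1757 (13.3%) and 1947 (14.7%). The lower count was 1047, 939, 950, 968 and 2720 without EV sgRosa replicate 1, EV sgRosa replicate 2, WT sgRosa replicate 1, EV sgPOU2F3 replicate 2 and WT sgPOU2F3 replicate 3, and the higher count was 491 without WT sgRosa replicate 2. In EV cells 1657 genes (12.5%) rose and 2744 (20.8%) fell, with 1689 and 1682 falls without EV sgRosa replicate 3 and EV sgPOU2F3 replicate 1, and there were 2589 rises (19.6%) and 2641 falls (20%) with median-ratio scaling. In WT cells 930 (7.04%) rose and 5958 (45.1%) fell. That last count rested on single libraries: 213, 879 and 1654 genes fell without WT sgRosa replicate 1, 2 or 3, and 1556 (11.8%) without WT sgPOU2F3 replicate 1, while rises numbered 141, 295, 475 and 377 (2.85%) in the same order. With median-ratio scaling 2731 (20.7%) rose and 2473 (18.7%) fell in WT cells.

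The EV response of at least 2-fold held 452 rises (3.42% of genes tested) and 609 falls (4.61%). Of the rises, 417 (92.3%) were called smaller in WT cells, 33 were not called different and 2 were larger. The median rise was 1.67 log2 in EV cells and 0.04 in WT cells, where the median of all genes was -0.43. Of the 417, 269 did not pass the test in WT cells, 90 still rose and 58 fell. The last 2 counts moved to 43 and 3 of 400 without WT sgRosa replicate 1 and to 171 and 24 of 489 with median-ratio scaling, and those that fell were 12 of 424 without WT sgPOU2F3 replicate 1. The set was chosen in EV libraries that also enter the difference, so the count called smaller is not independent of the choice. The WT response itself shares no library with it.

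The falls were reduced in part. Of the 609, 222 (36.5%) were called smaller in WT cells, 386 were not called different and 1 was larger. The median fall was -1.24 in EV cells and -0.74 in WT cells, or -0.32 relative to all genes. Of the 386, 339 also fell in WT cells, where 45.1% of all genes fell. That count moved with single libraries: it was 56 of 423, 168 of 437 and 215 of 431 without WT sgRosa replicate 1, 2 and 3, and 180 of 308 without WT sgPOU2F3 replicate 1. The share called smaller was 50.0% without WT sgPOU2F3 replicate 1, 72.8% with median-ratio scaling and 82.6% with both. The rises stood at 93.0%, 83.9% and 86.9% in the same settings. Transcript length moved with the split of the falls: the median was 1724 bases for those smaller in WT cells and 2245 for those not called, against 1817 for all genes tested. With the trend over length removed from each library, 74.7% of falls and 88.7% of rises were called smaller. Whether length caused the split was not tested.

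**Figure D1:**
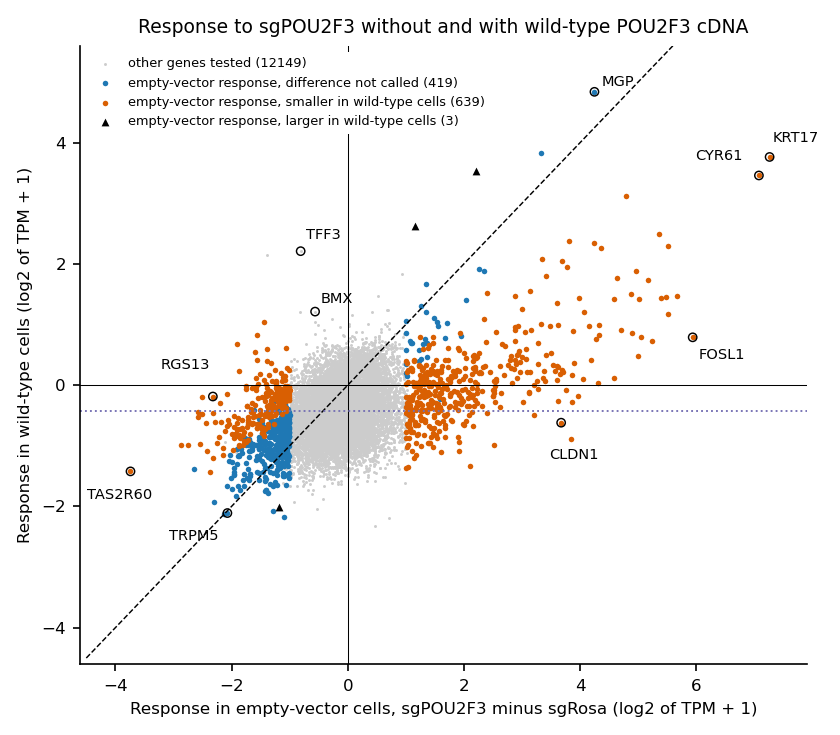
Response to sgPOU2F3 of each of the 13210 genes tested in EV cells (horizontal axis) and WT cells (vertical axis), both as differences of log2(TPM + 1), with the dashed line at equal responses and the dotted line at the WT median of all genes (-0.43). The orange points, 639 genes called smaller in WT cells, spread along the horizontal axis to the right, whereas most of the blue points, 419 not called different, lie near the dashed line on the lower left.

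Single libraries showed the same order, but the set was chosen for a large response in these same EV libraries. The EV medians are large by that choice, so their distance from the WT medians is partly built in. The median over the 452 rises, each sgPOU2F3 library against its own sgRosa mean, was 1.60, 1.90 and 1.62 log2 in EV cells and -0.21, 0.10 and 0.13 in WT cells. Less the median of all genes in the same library, these became 1.85, 1.89 and 1.79 against 0.52, 0.40 and 0.36. For the 609 falls the medians were -1.44, -1.07 and -1.29 in EV cells and -1.11, -0.57 and -0.54 in WT cells. Less the median of all genes, they were -1.19, -1.08 and -1.12 against -0.38, -0.27 and -0.31. The falls of WT sgPOU2F3 replicate 1 overlapped the EV range as measured and did not once its own median was taken off.

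**Figure D2:**
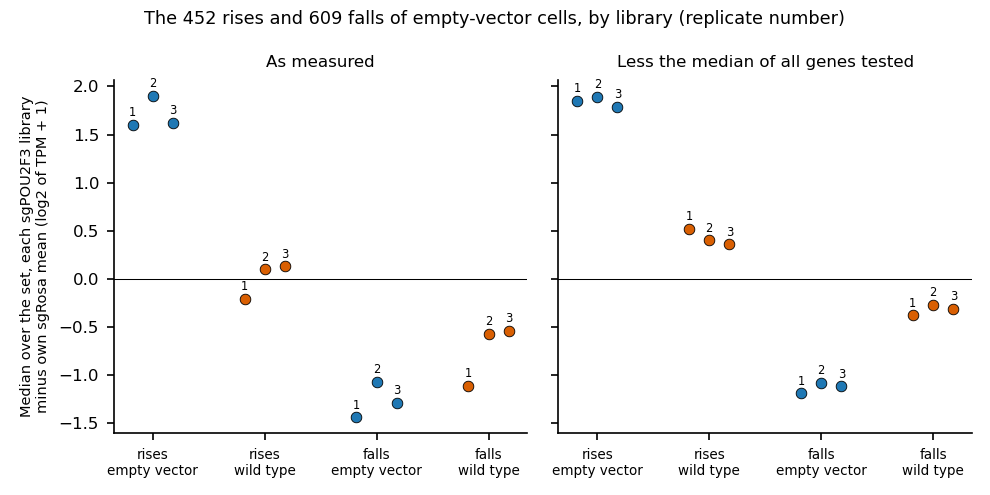
Median change of the EV rises and falls in each sgPOU2F3 library against the sgRosa mean of the same line (log2 of TPM + 1), as measured on the left and less the median of all genes tested on the right, where small numbers give the replicate. On the right the 3 WT libraries lie between 0.36 and 0.52 for the rises and between -0.38 and -0.27 for the falls. All EV libraries lie apart from these, and the set was chosen for its response in the EV libraries.

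**Figure D3:**
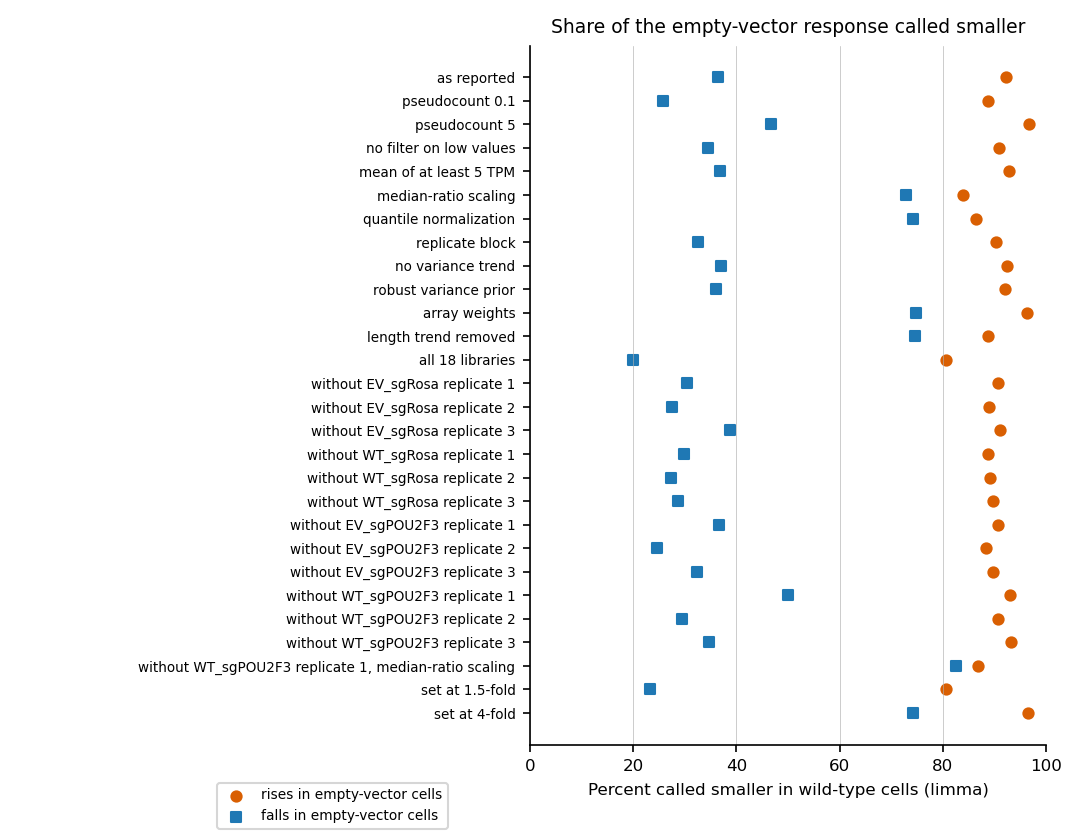
Percent of the EV rises (circles) and falls (squares) whose response was called smaller in WT cells, for each processing setting on the vertical axis. The rises stay between 80.6% and 96.7%, whereas the falls range from 19.9% to 82.6%.

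A difference of responses can also come from the control-guide libraries. Of the 1599 genes called lower, 1271 (79.5%) had the larger part of the difference between the sgPOU2F3 libraries of the 2 lines, and for the 766 called higher this was 495 (64.6%). In the other genes the larger part lay between the sgRosa libraries, where 1203 genes (9.11%) were called higher in WT than in EV cells and 1089 (8.24%) lower. These counts rested on single libraries too: higher and lower calls were 680 and 677 without EV sgRosa replicate 1, 624 and 608 without EV sgRosa replicate 2, 789 and 655 without WT sgRosa replicate 2 and 766 and 683 without WT sgRosa replicate 3, and higher calls were 692 without WT sgRosa replicate 1 and 2216 without WT sgPOU2F3 replicate 1. Within the EV response the share was 365 of 417 for the reduced rises and 162 of 222 for the reduced falls. The genes below are therefore given by level in all 4 groups. Testing required a mean of 1 TPM over the 12 libraries, so some list members passed only through their EV sgPOU2F3 level. This filter favours members that rose in EV cells, so counts among the members tested are not independent of it. Counts of calls in the gene lists below stand beside the shares of all genes tested: 5.8% of differences higher and 12.1% lower. With median-ratio scaling these shares were 13.3% and 14.7%. In EV cells 12.5% of all genes rose and 20.8% fell, and in WT cells 7.04% rose and 45.1% fell.

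The 12 genes with the largest lower differences were at 10.7 TPM or less in EV cells under sgRosa and rose there under sgPOU2F3. FOSL1, an AP-1 subunit (chr11:65892049-65900573, minus strand), was at 1.13, 0.801 and 0.236 TPM in the EV sgRosa libraries, 105, 107 and 94.2 in the EV sgPOU2F3 libraries, 2.22, 1.37 and 1.04 in the WT sgRosa libraries and 3.04, 4.06 and 2.91 in the WT sgPOU2F3 libraries. The WT sgPOU2F3 libraries lay just above both sgRosa groups and far below every EV sgPOU2F3 library. The difference was -5.15 ± 0.31 log2 (limma adjusted p = 3.17e-06), with a rise of 5.94 in EV cells and 0.79 in WT cells. TGFBI, a secreted matrix protein that binds integrins, was at 1.23, 0.996 and 1.54 TPM under sgRosa and 73.3, 73.05 and 66.4 under sgPOU2F3 in EV cells, and 2.23, 1.88 and 1.72 and 3.36, 2.96 and 2.93 in WT cells. Its small rise in WT cells (0.47) did not pass without WT sgPOU2F3 replicate 1 (adjusted p = 0.0599), and the difference was -4.53 ± 0.19 (adjusted p = 1.94e-07). LIF, a cytokine of the interleukin-6 family, was at 0.526, 0.442 and 0.822 TPM under sgRosa and 55.7, 71.9 and 50.9 under sgPOU2F3 in EV cells, and 1.60, 1.32 and 1.003 and 1.71, 3.93 and 3.11 in WT cells, a difference of -4.51. The highest WT library, at 3.93 TPM, was far below the lowest EV sgPOU2F3 library.

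ITGA3, the alpha subunit of a laminin receptor, was at 0.63, 0.492 and 0.867 TPM under sgRosa and 33.6, 55.1 and 31.7 under sgPOU2F3 in EV cells, and 2.15, 1.89 and 1.88 and 1.38, 2.76 and 2.70 in WT cells. Its WT groups overlapped and its WT response of 0.11 was not called (adjusted p = 0.688), for a difference of -4.48. PLAU, the urokinase protease, went from 0.418, 0.789 and 0.21 to 63.5, 67.8 and 64.7 TPM in EV cells and from 0.708, 0.495 and 0.508 to 1.94, 2.83 and 2.89 in WT cells. Its difference was -4.34, and it kept a rise of 1.17 in WT cells (adjusted p = 0.00248), with no overlap of the groups. THBS1, a matricellular glycoprotein, went from 1.96, 1.64 and 2.52 to 141, 189 and 133 TPM in EV cells and from 3.55, 2.62 and 2.69 to 6.92, 11.2 and 12.3 in WT cells, a difference of -4.20 with a rise of 1.47 left (adjusted p = 0.00288). CLDN6, a tight junction claudin of early epithelia, had a difference of -4.24 with 1.03, 1.17 and 1.22 TPM left in the WT sgPOU2F3 libraries against 45.3, 41.9 and 41.4 in the EV ones. EPHA2, an ephrin receptor tyrosine kinase, TNFRSF12A, the receptor of TWEAK, and TNFRSF6B, a decoy receptor, had differences of -4.14, -4.28 and -4.13, and none of the 3 changed in WT cells by the test. TNFRSF6B overlaps RTEL1 transcripts, and how reads were shared between them is not known.

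ETS1 and CLDN1 belonged to the same 12 genes but were not returned to a low level. ETS1, an ETS-family transcription factor, was at 0.346, 0.395 and 0.759 TPM under sgRosa and 17.6, 25.1 and 19.3 under sgPOU2F3 in EV cells, and 11.4, 9.97 and 9.99 and 3.45, 6.11 and 6.33 in WT cells. WT cells held it at 9.97 to 11.4 TPM with the control guide, above every EV sgRosa library, and the difference was -4.74 ± 0.30 (limma adjusted p = 3.17e-06). CLDN1, a claudin of barrier epithelia, was at 0.908, 0.721 and 0.668 TPM under sgRosa and 21.6, 20.6 and 22.2 under sgPOU2F3 in EV cells, and 28.3, 25.98 and 25.2 and 16.8, 18.9 and 15.2 in WT cells. All 6 WT libraries were at 15.2 TPM or more, while EV cells reached that level only under sgPOU2F3. The difference of -4.29 for CLDN1 thus held a gap of 3.96 between the lines under sgRosa (limma adjusted p = 7.52e-09).

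Targets of YAP and TAZ, the coactivators that TEAD factors recruit when Hippo kinase signalling is low, rose in EV cells and rose less in WT cells. Of 28 listed genes 24 were tested: 17 rose and 1 fell in EV cells, 11 rose and 7 fell in WT cells, and the difference was lower in 18 and higher in none, against 12.1% of all genes called lower, with a median of -2.15 against -0.26 for all genes. The 7 falls in WT cells became 2 without WT sgPOU2F3 replicate 1, and with median-ratio scaling 13 rose and 5 fell there. CYR61 (CCN1), a secreted matrix ligand, was at 2.20, 2.56 and 2.13 TPM in the EV sgRosa libraries, 439.9, 487 and 405 in the EV sgPOU2F3 libraries, 4.78, 4.29 and 3.45 in the WT sgRosa libraries and 40.3, 60.1 and 70.5 in the WT sgPOU2F3 libraries. Every WT sgPOU2F3 library was over the sgRosa libraries and far under the EV sgPOU2F3 libraries. The rise was 7.08 log2 in EV cells and 3.46 in WT cells, and the difference -3.62 ± 0.26 (limma adjusted p = 7.76e-06). CTGF (CCN2), its close relative, went from 2.52, 2.83 and 3.58 to 48.6, 56.2 and 44.9 TPM in EV cells and from 3.80, 2.25 and 2.31 to 8.88, 15.2 and 21.7 in WT cells, a difference of -1.63 (adjusted p = 0.0152). ANKRD1, a cofactor of muscle and endothelial cells, went from 0.554, 0.231 and 0.636 to 43.4, 40.4 and 35.5 TPM in EV cells and from 1.05, 0.879 and 0.77 to 15.5, 16.96 and 14.1 in WT cells, with 3.12 of its 4.80 log2 rise left. These 3 classic targets rose in both lines.

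Others in the list were closer to baseline in WT cells. NUAK2, a kinase, was at 0.631, 0.588 and 1.05 TPM under sgRosa and 45.4, 61.6 and 47.2 under sgPOU2F3 in EV cells, and 0.77, 0.394 and 0.994 and 1.31, 2.42 and 2.72 in WT cells, a difference of -4.03. AJUBA, a LIM protein that restrains the Hippo kinases, had 3.60 in EV cells and 0.31 in WT cells (adjusted p = 0.262). EDN1 (endothelin), MYOF and IGFBP3 had differences of -3.37, -3.60 and -2.87, each with a smaller rise left in WT cells. Of 22 Hippo kinases, adaptors and TEAD factors tested, 7 had a lower difference and none a higher one, with all libraries, without WT sgPOU2F3 replicate 1 and with median-ratio scaling. YAP1 itself went from 3.26, 3.01 and 4.25 to 39.7, 58.8 and 39.9 TPM in EV cells and from 14.996, 11.1 and 12.6 to 8.19, 19.3 and 21.7 in WT cells, and its EV rise of 3.37 was 0.23 in WT cells (adjusted p = 0.525). WT sgPOU2F3 replicate 1 was the lowest of its group for YAP1, and the difference of -3.14 was -2.74 without it. WWTR1, which encodes TAZ, and FRMD6, an upstream regulator, had differences of -1.75 and -2.81.

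AP-1 subunits, the leucine zipper factors of stress and growth factor responses, had 7 rises in EV cells and 2 in WT cells among 10 tested. The difference was lower in 6, against 12.1% of all genes, and higher in none. With median-ratio scaling it was lower in 8, against 14.7% of all genes, and 5 rose in WT cells, against 20.7%. FOSL2 went from 10.8, 10.2 and 12.7 to 91.2, 168 and 88.6 TPM in EV cells and from 20.5, 18.1 and 17.4 to 6.73, 18.4 and 17.4 in WT cells. Its WT groups overlapped, WT sgPOU2F3 replicate 1 was the lowest, and the difference was -3.68, or -3.25 without that library. JUN and BATF3 had differences of -2.19 and -1.88, with no called change in WT cells.

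The upstream sequence of the genes in each class was searched on both strands for the octamer ATGCAAAT, for the AP-1 motif TGANTCA and for the TEAD motif GGAATG, in the 250 bases before the RefSeq start of GRCh38.p14. Of the 13210 genes tested 10720 had such a sequence. TGANTCA stood before 42 of 321 reduced rises (13.1%), 14 of 173 reduced falls (8.09%) and 13 of 297 falls not called different (4.38%), against 6.11% of all genes tested. GGAATG stood before 62 of 321 reduced rises (19.3%), against 13.1% of all genes. The octamer stood before 12 of 173 reduced falls (6.94%), 16 of 297 falls not called different (5.39%) and 7 of 321 reduced rises (2.18%), against 2% of all genes. Over the 27305 sequences of that length in the table the shares were 2.03% for the octamer, 8.06% for TGANTCA and 14.3% for GGAATG. The end of GGAATG can overlap the start of the octamer. Shares of this kind describe letters in a window and show no binding. The sequence before CTGF (chr6:131951373-131951622, minus strand) held 3 matches of the TEAD motif and that before MMP7 (chr11:102530748-102530997, minus strand), described with the proteases below, 1 match of the AP-1 motif. They are shown as examples of each motif before a gene whose rise was reduced but not lost, and capitals mark the matches.
CTGF: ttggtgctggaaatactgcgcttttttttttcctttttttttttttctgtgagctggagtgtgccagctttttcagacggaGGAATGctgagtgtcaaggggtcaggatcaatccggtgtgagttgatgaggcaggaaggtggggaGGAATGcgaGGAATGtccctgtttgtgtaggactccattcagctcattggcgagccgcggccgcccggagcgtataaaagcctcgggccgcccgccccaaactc
MMP7: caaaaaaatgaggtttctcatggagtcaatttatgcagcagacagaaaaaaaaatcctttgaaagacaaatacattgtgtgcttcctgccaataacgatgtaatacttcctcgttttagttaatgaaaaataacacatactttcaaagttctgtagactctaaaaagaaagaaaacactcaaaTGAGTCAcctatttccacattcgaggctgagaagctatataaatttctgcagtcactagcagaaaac

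Proteases of matrix breakdown and genes of the urokinase system rose in EV cells and rose less in WT cells. Of 12 tested, 10 rose in EV cells and 6 in WT cells, or 9 in WT cells with median-ratio scaling. All 10 that rose in EV cells had a lower difference (list median -1.81). SERPINB7, a serine protease inhibitor of keratinocytes, was at 0.15, 0.0621 and 0 TPM under sgRosa and 45.9, 40.8 and 44.4 under sgPOU2F3 in EV cells, and 0.126, 0.08 and 0.0695 and 2.46, 1.85 and 1.59 in WT cells. SERPINB7 kept a rise of 1.43 in WT cells (limma adjusted p = 0.00011), with no overlap of the WT groups, and its difference was -3.95. MMP13, a collagenase, and MMP7 (matrilysin), which degrades several matrix proteins, are both matrix metalloproteinases. MMP13 went from 0.204, 0.127 and 0.264 to 28.98, 32.6 and 29.2 TPM in EV cells and from 0, 0.22 and 0.0476 to 1.42, 0.987 and 0.778 in WT cells, a difference of -3.79. MMP7 was listed at 0 in all EV sgRosa libraries and was at 7.66, 5.90 and 10.5 TPM in the EV sgPOU2F3 libraries, 0.463, 0.293 and 0 in the WT sgRosa libraries and 2.61, 2.82 and 2.49 in the WT sgPOU2F3 libraries, a difference of -1.59 (adjusted p = 0.0027).

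Keratins rose in EV cells and rose less, or were not called, in WT cells. All 7 tested of 16 listed rose in EV cells and 5 rose in WT cells, or 4 without WT sgPOU2F3 replicate 1 and 6 with median-ratio scaling. The filter on level favours such members. KRT16 was tested only through its EV sgPOU2F3 mean of 17.85 TPM, against 0.0552 in EV sgRosa, 0.0602 in WT sgRosa and 1.11 in WT sgPOU2F3. All 7 differences were lower, against 12.1% of all genes, also with median-ratio scaling (14.7% of all genes). KRT17, a keratin of wounded and basal epithelium, was at 3.003, 1.94 and 2.07 TPM in the EV sgRosa libraries, 524, 512 and 481 in the EV sgPOU2F3 libraries, 2.56, 1.14 and 2.14 in the WT sgRosa libraries and 33.8, 40.03 and 40.7 in the WT sgPOU2F3 libraries. The WT sgPOU2F3 libraries were at 33.8 TPM or more, clear of every sgRosa library. Of a rise of 7.26 log2 in EV cells, 3.76 was left (limma adjusted p = 1.37e-06), for a difference of -3.50 ± 0.26. KRT8 and KRT18, the paired keratins of simple epithelia, went from 288, 279 and 279.9 to 1032, 940.3 and 993 TPM in EV cells and from 436, 431 and 473 to 557, 511 and 501 in WT cells, and from 310.3, 293 and 308 to 744, 743 and 732 TPM in EV cells and from 395, 395 and 411 to 435, 425 and 453 in WT cells. Their differences were -1.57 and -1.15. KRT16 had a difference of -3.17, and reads of KRT16 and KRT17, which are near-identical in part, may have been split between them. KRT5 and KRT14, the defining basal pair, reached at most 0.149 and 0.859 TPM in any library.

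Mesenchymal genes were reduced likewise. Of 16 tested, 10 rose in EV cells and 3 in WT cells, or 5 in WT cells with median-ratio scaling. The difference was lower in the 10 that rose in EV cells, or 9 lower and 1 higher without WT sgPOU2F3 replicate 1. FN1 (fibronectin) went from 2.56, 1.87 and 2.61 to 83.96, 131 and 98.4 TPM in EV cells and from 4.91, 3.5001 and 3.78 to 12.8, 21.9 and 19.2 in WT cells, a difference of -3.07 (limma adjusted p = 7.42e-05). VIM, the intermediate filament of mesenchymal cells, went from 8.41, 7.11 and 9.11 to 111, 122 and 101 TPM in EV cells and from 22.8, 20.1 and 15.03 to 29.4, 37.6 and 53.05 in WT cells, a difference of -2.62. SNAI2, a repressor of epithelial genes, was at 2.34, 1.95 and 2.20 TPM under sgRosa and 42.5, 39.7 and 37.97 under sgPOU2F3 in EV cells, and 2.82, 1.99 and 1.34 and 2.86, 2.50 and 2.15 in WT cells. The WT groups of SNAI2 overlapped and its difference was -3.47. COL3A1 and LUM, a fibrillar collagen and a collagen-binding proteoglycan, had differences of -2.25 and -2.75 at low levels. Integrin subunits had 5 lower differences of 13 tested, ITGA3 first, and ITGB3, ITGA5 and ITGB5 followed with -2.32, -1.48 and -1.40. Among 20 epithelial junction genes 6 differences were lower and 1 higher, against 12.1% and 5.8% of all genes. CDH1 (E-cadherin) had 0.31 in EV cells, not called, and -0.83 in WT cells (adjusted p = 0.0214). ELF3, an epithelial ETS factor, was the higher one (0.66).

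Inflammatory genes rose in EV cells, and fewer rose in WT cells. Of 22 cytokines and chemokines tested, 16 rose in EV cells and 7 in WT cells, or 10 in WT cells with median-ratio scaling. Of the differences 13 were lower and 1 higher, against 12.1% and 5.8% of all genes. IL6 was at 0.261, 0.255 and 0.165 TPM under sgRosa and 20.9, 21.96 and 21.2 under sgPOU2F3 in EV cells, and 0.106, 0.0668 and 0.173 and 0.491, 0.955 and 0.131 in WT cells. Its WT response of 0.42 was not called (limma adjusted p = 0.0583), and the difference was -3.77 ± 0.24 (adjusted p = 3.55e-06). CXCL8, the neutrophil chemokine, went from 1.21, 1.26 and 0.599 to 31.5, 32.6 and 33.8 TPM in EV cells and from 1.72, 1.71 and 1.67 to 5.78, 5.35 and 4.63 in WT cells. A rise of 1.21 remained, with no overlap of the WT groups. IL32 had a difference of -3.44. Among 18 NF-kB feedback genes and effectors, 14 rose in EV cells, 2 rose and 5 fell in WT cells, and 15 differences were lower. With median-ratio scaling the WT counts turned to 6 rises and 2 falls, and 13 differences were lower. ICAM1, an adhesion molecule for leukocytes, went from 0.253, 0.209 and 0.197 to 13.7, 16.5 and 12.8 TPM in EV cells and from 0.429, 0.378 and 0.481 to 0.362, 0.554 and 0.988 in WT cells, a difference of -3.47. BIRC3, IRF1 and the feedback inhibitor TNFAIP3 had differences of -1.75, -1.76 and -2.10.

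MHC class I genes, which present peptides to T cells, rose in 16 of 18 cases in EV cells and in 2 in WT cells. The WT count was 5 with median-ratio scaling. Lower differences numbered 13, against 12.1% of all genes, or 10 with median-ratio scaling, against 14.7%. HLA-C was at 38.1, 37.3 and 31.8 TPM under sgRosa and 114, 112 and 106 under sgPOU2F3 in EV cells, and 81.1, 78.2 and 83.95 and 67.6, 79.2 and 75.3 in WT cells. The difference of -1.74 (limma adjusted p = 1.02e-05) held a gap under sgRosa: WT cells were 1.16 log2 higher than EV cells with the control guide. PSMB9, an immunoproteasome subunit, had a difference of -2.03. B2M, the light chain of class I, was chosen after its values were seen because both lines responded. It was at 254, 269.7 and 258 TPM under sgRosa and 507, 444 and 487 under sgPOU2F3 in EV cells, and 257, 283 and 291 and 479.5, 436 and 420.2 in WT cells. B2M rose in both lines by 0.88 and 0.68 log2, and its difference of -0.19 had a 95% interval of -0.45 to 0.07. HLA genes and the IFITM genes below are near-identical families, and how reads were assigned within them is uncertain.

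Interferon response genes gave 4 lower differences of 18 tested, against 12.1% of all genes. IFITM1 and IFITM3, which encode membrane proteins that block virus entry, were among them. IFITM3 went from 19.3, 17.9 and 17.2 to 283, 238 and 284 TPM in EV cells and from 22.2, 26.5 and 28.97 to 164, 134 and 121 in WT cells, so that 2.38 of a rise of 3.81 was left. IFITM1 was listed at 0 in all 6 sgRosa libraries and stood at 8.28, 8.18 and 11.1 TPM in the EV and 4.08, 2.89 and 2.77 TPM in the WT sgPOU2F3 libraries. IFITM2 went from 51.04, 48.2 and 41.4 to 234, 195 and 256 TPM in EV cells and from 23.7, 22.8 and 26.9 to 115, 86.7 and 87.2 in WT cells, and its difference of -0.33 had an interval of -0.77 to 0.10 (adjusted p = 0.246).

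Genes of growth factor signalling were reduced in several families. Of 23 TGF-beta and BMP genes, 11 rose in EV cells and 6 in WT cells. Of the differences 12 were lower and 2 higher, against 12.1% and 5.8% of all genes. TGFB2, a TGF-beta ligand, went from 0.28, 0.451 and 0.569 to 53.3, 62.7 and 57.6 TPM in EV cells and from 0.656, 0.685 and 0.576 to 6.15, 7.71 and 11.6 in WT cells, a difference of -2.87 ± 0.27 (limma adjusted p = 4.40e-05). TGFBR2, the type II receptor, had no called change in WT cells (-0.02) and a difference of -2.54. GREM1, a BMP antagonist, went from 0.298, 0.335 and 0.12 to 29.8, 29.2 and 27.2 TPM in EV cells and from 0.726, 0.363 and 0.461 to 1.81, 3.95 and 3.70 in WT cells. Of 6 insulin-like growth factor binding proteins tested, all rose in EV cells, 4 rose in WT cells and 5 differences were lower. The last 2 counts were 5 and 6 with median-ratio scaling. IGFBP4 went from 4.51, 4.08 and 6.88 to 257, 296 and 254 TPM in EV cells and from 7.57, 6.76 and 6.44 to 11.5, 22.2 and 33.8 in WT cells, a difference of -4.03, and IGFBP7 had -3.33, of which 2.16 was a gap under sgRosa. Among 19 ERK feedback genes 14 differences were lower, against 12.1% of all genes, and none higher, or 1 higher with median-ratio scaling. DUSP5 and IER3 had -2.79 and -1.68, and ETV4 had -2.26 with the WT libraries at 22.5 to 46.4 TPM under either guide. HBEGF, a ligand of the EGF receptor, went from 3.26, 2.60 and 3.10 to 56.5, 58.5 and 54.7 TPM in EV cells and from 5.71, 5.08 and 4.65 to 4.65, 7.87 and 5.41 in WT cells, a difference of -3.69, and AREG, another, had -1.34. Among 21 growth factor receptors and ligands 8 differences were lower and 3 higher, against 12.1% and 5.8% of all genes.

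**Figure D4:**
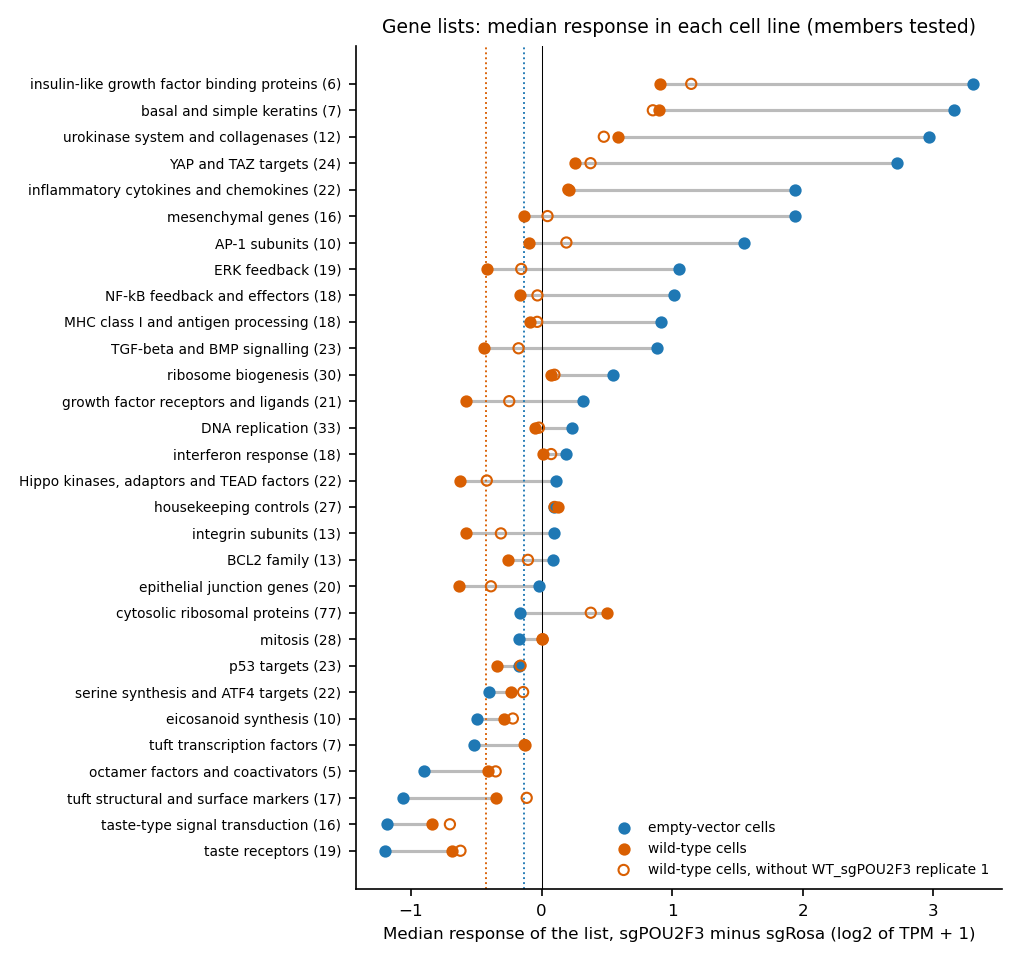
Median response to sgPOU2F3 of each gene list (members tested in brackets) in EV cells (blue) and WT cells (orange, open circles without WT sgPOU2F3 replicate 1), with dotted lines at the medians of all genes tested (-0.13 and -0.43). Lists at the top, such as keratins and YAP and TAZ targets, lie well to the left in WT cells, and the taste lists at the bottom lie to the right of their EV values.

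Many tuft genes fell in EV cells under sgPOU2F3, and some of them, but not others, stayed at or near their level in WT cells. Of 19 taste receptors tested, 17 fell in EV cells, against 20.8% of all genes, and 10 in WT cells, against 45.1%. With median-ratio scaling 7 fell in WT cells, against 18.7%. The difference was higher in 7 and lower in none, against 5.8% of all genes called higher. TAS2R60, a bitter receptor (chr7:143443453-143444409, plus strand), was at 21.5, 21.2 and 33.8 TPM in the EV sgRosa libraries, 0.941, 0.961 and 0.92 in the EV sgPOU2F3 libraries, 22.1, 17.4 and 18.4 in the WT sgRosa libraries and 7.35, 6.70 and 5.67 in the WT sgPOU2F3 libraries. All 3 WT sgPOU2F3 libraries were above the EV sgPOU2F3 libraries and below every sgRosa library, an intermediate level. TAS2R60 fell by 3.74 log2 in EV cells and by 1.42 in WT cells, a difference of 2.32 ± 0.26 (limma adjusted p = 0.000162). TAS2R38, the receptor for the bitter compound PTC, was at 442, 424 and 600.1 TPM under sgRosa and 71.9, 91.1 and 105 under sgPOU2F3 in EV cells, and 538, 599 and 647 and 396, 433 and 328 in WT cells, a difference of 1.81. TAS2R10 was at 62.3, 66.05 and 85.4 TPM under sgRosa and 11.1, 14.6 and 18.9 under sgPOU2F3 in EV cells, and 120.2, 117 and 131 and 101, 106 and 90.4 in WT cells. The WT sgPOU2F3 libraries of TAS2R10 were above all EV libraries, and the WT fall of 0.30 was not called (adjusted p = 0.147).

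Not every receptor was called. TAS1R3, a subunit of the sweet and umami receptors, fell by 1.81 in EV cells and by 1.57 in WT cells, a difference of 0.24 (adjusted p = 0.691). TAS2R5 had a difference of 0.26 and TAS2R4 of 0.14, neither called. TAS2R42 and TAS2R8 were called, at 1.04 and 1.39. Bitter receptors of the chromosome 12 cluster are near-identical, and reads may have been split among them.

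The octamer stood before TAS2R60 and TAS2R10 and before BMX, a tuft kinase described below. They are shown because all 3 had a higher difference: TAS2R60 fell less in WT cells, TAS2R10 had no called WT response and BMX rose there. The octamer also stood before TAS2R5, TAS2R3 and TAS2R13, whose differences of 0.26, -0.84 and -0.39 were not called. Among other listed genes it stood before TAS2R7 and ELF3, called higher (0.90 and 0.66). It also stood before AJUBA, ITPR3 and SMAD3, called lower (-3.29, -1.80 and -1.74), and before further genes that were not called. Positions -182 to -175 hold the match before TAS2R60 (chr7:143443203-143443452, plus strand), -172 to -165 that before TAS2R10 (chr12:10826359-10826608, minus strand) and -44 to -37 that before BMX (chrX:15507058-15507307, plus strand), counted from the RefSeq start, and capitals mark it. In the first 2 the match reads on the other strand.
TAS2R60: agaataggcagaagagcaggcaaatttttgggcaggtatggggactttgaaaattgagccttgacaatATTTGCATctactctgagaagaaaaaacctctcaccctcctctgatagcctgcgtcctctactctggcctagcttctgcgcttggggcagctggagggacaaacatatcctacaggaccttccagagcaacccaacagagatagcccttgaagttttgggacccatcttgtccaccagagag
TAS2R10: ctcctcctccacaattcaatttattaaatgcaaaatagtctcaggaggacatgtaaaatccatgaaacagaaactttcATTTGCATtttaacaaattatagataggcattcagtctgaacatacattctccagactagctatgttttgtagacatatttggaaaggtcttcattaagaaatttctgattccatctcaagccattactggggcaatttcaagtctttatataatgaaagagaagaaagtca
BMX: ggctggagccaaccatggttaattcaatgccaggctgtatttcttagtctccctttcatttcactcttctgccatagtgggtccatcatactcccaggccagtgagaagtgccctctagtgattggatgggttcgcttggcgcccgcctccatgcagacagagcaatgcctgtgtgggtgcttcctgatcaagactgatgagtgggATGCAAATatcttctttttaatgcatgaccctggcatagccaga

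The taste-type signalling chain split by component. Of 16 genes tested, 10 fell in EV cells, against 20.8% of all genes, and 13 in WT cells, against 45.1%, or 8 with median-ratio scaling. The difference was higher in 5, against 5.8% of all genes, and lower in 1. Regulators of G-protein signalling kept most of their level in WT cells. RGS13 was at 1076, 1136 and 1339 TPM in the EV sgRosa libraries, 229, 238 and 239 in the EV sgPOU2F3 libraries, 1696, 1795 and 1986 in the WT sgRosa libraries and 1560.3, 1593 and 1645 in the WT sgPOU2F3 libraries. The WT sgPOU2F3 libraries were above every EV library, and the difference was 2.13 ± 0.13 (limma adjusted p = 3.17e-06). RGS21, found in taste cells, went from 27.7, 30.7 and 41.9 to 5.46, 4.42 and 4.34 TPM in EV cells and from 151, 132 and 160.0 to 96.9, 97.8 and 110.2 in WT cells. The WT line carried more RGS21 under either guide than EV cells did under sgRosa, and the difference was 2.04. RGS2 went from 1149, 1269.7 and 1246 to 397, 363 and 407 TPM in EV cells and from 1119, 1321 and 1405 to 1382, 1146 and 1178 in WT cells, with no called WT response (-0.05).

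GNAT3 and GNG13, subunits of the taste receptors' G protein, fell in both lines. GNAT3, the gustducin alpha subunit, went from 228, 208 and 349.7 to 62.5, 83.3 and 71.6 TPM in EV cells and from 733, 633 and 613 to 327, 407 and 389 in WT cells, a difference of 0.99 (adjusted p = 0.0234), and GNG13, its gamma subunit, from 304, 279.5 and 369.6 to 57.8, 60.1 and 62.8 TPM in EV cells and from 163, 140.1 and 108 to 43.98, 43.5 and 63.2 in WT cells, a difference of 0.94. Under sgPOU2F3 the WT libraries of GNAT3 were above every EV library, whereas those of GNG13 overlapped, and its difference sat beside a gap of -1.22 under sgRosa. Neither TRPM5 nor PLCB2 was called different with all libraries. TRPM5 was at 261, 229 and 329.7 TPM under sgRosa and 50.5, 93.8 and 53.97 under sgPOU2F3 in EV cells, and 422, 361 and 414 and 42.6, 131 and 137 in WT cells. It fell by 2.07 and 2.11 log2, a difference of -0.04 with a 95% interval of -1.23 to 1.16. WT sgPOU2F3 replicate 1 was the lowest of its group at 42.6 TPM, and without it the difference was 0.50 (adjusted p = 0.26). PLCB2, the phospholipase C beta of taste cells, had 0.53 (adjusted p = 0.364), or 0.91 (adjusted p = 0.0317) without that library. ITPR3, the calcium release channel downstream of it, had the lower difference (-1.80) and went from 1.02, 0.68 and 1.27 to 2.41, 4.79 and 2.69 TPM in EV cells and from 5.56, 4.92 and 4.60 to 1.37, 3.81 and 3.22 in WT cells.

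Structural and surface markers of tuft cells gave 8 higher differences of 17 tested and no lower one, 10 without WT sgPOU2F3 replicate 1 and 13 with median-ratio scaling. All-gene shares of higher differences were 5.8% with all libraries and 13.3% with median-ratio scaling. In EV cells 13 fell, against 20.8% of all genes. In WT cells 5 fell and 2 rose, against 45.1% and 7.04%. AVIL (advillin), an actin-bundling protein of the tuft, went from 815, 822 and 1000.2 to 262, 312 and 291 TPM in EV cells and from 703, 655 and 703 to 441, 518 and 492 in WT cells, a difference of 1.09 (limma adjusted p = 0.000647). LRMP went from 1994, 2137 and 2130.4 to 786, 753 and 823 TPM in EV cells and from 1241, 1341 and 1456 to 1328, 1220.0 and 1142 in WT cells, a difference of 1.28 ± 0.12 (adjusted p = 6.44e-05). SH2D6 fell by 2.74 and by 0.98, a difference of 1.76. IL17RB, the interleukin-25 receptor, had 0.59. DCLK1, a kinase widely used as a tuft marker, was at 3.65, 3.40 and 5.38 TPM under sgRosa and 1.77, 2.42 and 1.88 under sgPOU2F3 in EV cells, and 14.7, 12.7 and 11.9 and 1.83, 4.08 and 5.41 in WT cells. It fell by 0.75 in EV cells and by 1.64 in WT cells, and the difference of -0.89 was not called (adjusted p = 0.117). CHAT, the acetylcholine-making enzyme, was not called with all libraries (adjusted p = 0.105) and was called without WT sgPOU2F3 replicate 1 (1.46, adjusted p = 0.0243) and with median-ratio scaling (1.45, adjusted p = 0.00568).

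BMX and KIT took other courses. BMX, a kinase of the TEC family, was at 547, 576 and 622 TPM in the EV sgRosa libraries, 371, 389 and 422 in the EV sgPOU2F3 libraries, 249.7, 260.3 and 279.9 in the WT sgRosa libraries and 679, 631 and 531 in the WT sgPOU2F3 libraries. WT sgPOU2F3 libraries were above the WT sgRosa libraries, so that BMX fell by 0.56 in EV cells and rose by 1.21 in WT cells, a difference of 1.77 ± 0.14 (limma adjusted p = 1.56e-05). The WT line under sgRosa held less BMX than any EV library. KIT, the stem cell factor receptor, was at 91.1, 89.5 and 108 TPM under sgRosa and 18.03, 25.03 and 23.1 under sgPOU2F3 in EV cells, and 22.03, 18.97 and 23.3 and 18.01, 19.6 and 19.8 in WT cells. Of the 6 WT libraries 5 lay within the range of the EV sgPOU2F3 libraries and 1 just below it, and the difference of 1.93 sat beside a gap of -2.12 under sgRosa. Of 7 tuft transcription factors 2 fell in EV cells and 1, SPIB, rose there, by 0.90 (limma adjusted p = 0.0015). The difference was higher in 2, against 5.8% of all genes: GFI1B (0.76) and MYB (1.07). MYB was at 132, 132 and 159.5 TPM under sgRosa and 65.1, 80.1 and 72.7 under sgPOU2F3 in EV cells, and 37.5, 34.5 and 37.3 and 35.7, 42.5 and 41.2 in WT cells, so that all 6 WT libraries were below every EV library. ASCL2, another, had -0.65 (adjusted p = 0.252).

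**Figure D5:**
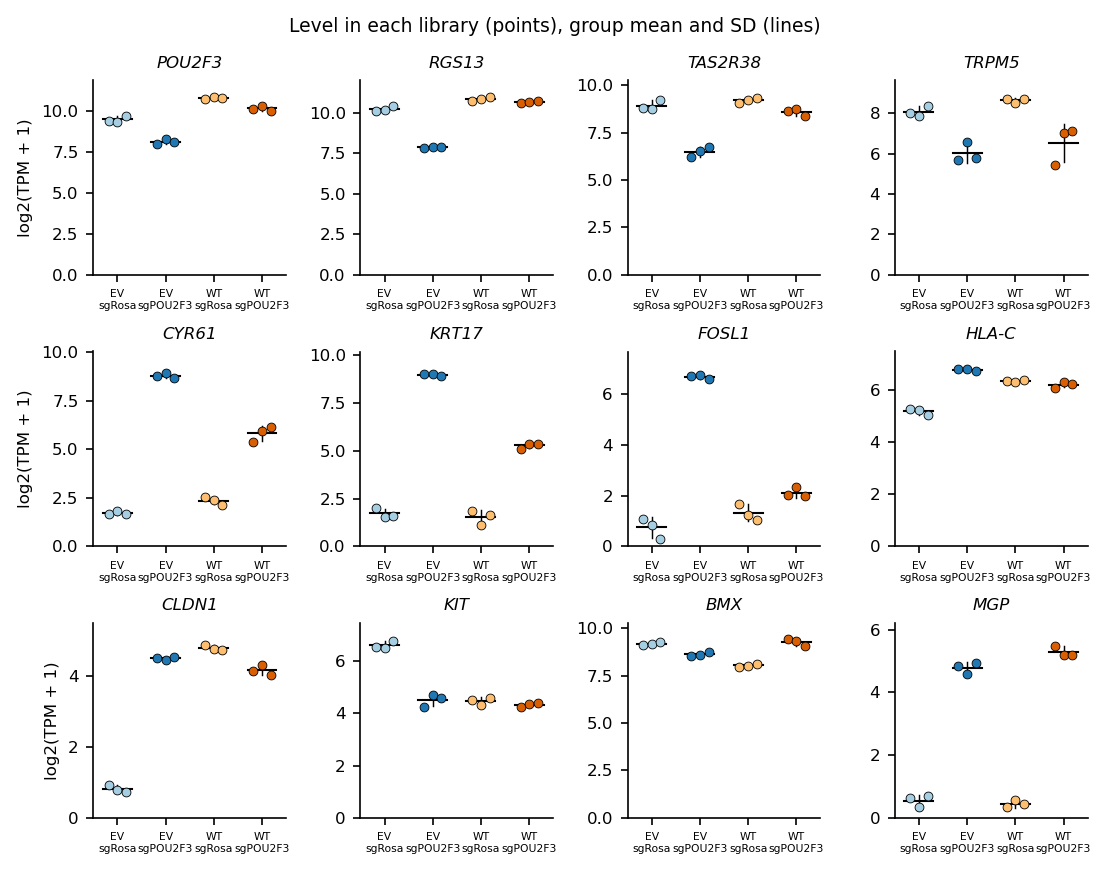
Level of 12 genes as log2(TPM + 1) in each library (points, 3 per group), with the group mean and SD as lines. RGS13 and TAS2R38 stay high in WT cells under sgPOU2F3, CYR61 and KRT17 keep part of their rise, KIT is nearly flat in WT cells, CLDN1 falls there from a high level, and TRPM5 falls and MGP rises in both lines.

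In 7 of the 12 genes with the largest higher differences, the larger part lay under sgRosa, as for KIT. TFF3, a trefoil peptide of mucus-secreting cells, was at 84.03, 101 and 70.8 TPM in the EV sgRosa libraries, 49.01, 41.8 and 52.7 in the EV sgPOU2F3 libraries, 4.83, 7.05 and 6.83 in the WT sgRosa libraries and 38.96, 29.002 and 29.3 in the WT sgPOU2F3 libraries. The WT sgRosa libraries were the lowest group, and TFF3 rose by 2.21 log2 in WT cells and fell by 0.81 in EV cells. The difference was 3.02 ± 0.25 (limma adjusted p = 1.85e-05). ANXA13, an intestinal annexin, RTL9 and MSTN (myostatin, a ligand of the TGF-beta family) were likewise lower in WT cells than in EV cells under sgRosa, by 1.61, 2.11 and 2.68 log2, and had differences of 2.58, 2.38 and 2.13. MSTN was at 247, 272 and 358 TPM under sgRosa and 89.001, 95.2 and 102 under sgPOU2F3 in EV cells, and 43.1, 43.4 and 46.3 and 63.7, 64.01 and 66.5 in WT cells. BIK, a pro-apoptotic BH3-only protein, was at 96.6, 99.9 and 79.1 TPM under sgRosa and 14.8, 14.2 and 16.9 under sgPOU2F3 in EV cells, and 28.7, 30.6 and 31.5 and 27.7, 26.9 and 24.1 in WT cells. Its WT libraries under either guide lay between the EV groups, and its difference was 2.30. SELENOP, a selenium carrier, and CHAD, a cartilage matrix protein, had differences of 2.11 and 2.03 with sgRosa gaps of -1.52 and -1.91.

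In the other 5 of those 12 the larger part lay under sgPOU2F3, among them TAS2R60, RGS13 and RGS21 above. CLPSL2, a colipase-like protein, was at 52.5, 36.6 and 39.6 TPM under sgRosa and 6.88, 6.05 and 5.89 under sgPOU2F3 in EV cells, and 35.1, 61.3 and 43.5 and 32.7, 29.5 and 37.6 in WT cells. The WT groups of CLPSL2 overlapped, the EV groups did not, and the difference was 2.13 ± 0.28 (limma adjusted p = 0.000528). B3GALT2, a galactosyltransferase, was at 70.6, 72.8 and 104 TPM under sgRosa and 27.6, 32.6 and 31.1 under sgPOU2F3 in EV cells, and 143, 140.4 and 156 and 223, 230.4 and 209 in WT cells. It rose in WT cells by 0.59 (adjusted p = 0.0177) and fell in EV cells by 1.39.

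With TPM as deposited, more falls than rises of the EV set were of at least 2-fold in WT cells too: 175 falls and 45 rises. With median-ratio scaling the order turned, to 40 falls and 81 rises. With at least 2-fold in the same direction in EV and WT cells, at least 5 TPM in 1 group, and a 95% interval of the difference within 1 log2 of 0, there were 54 falls and 4 rises with TPM as deposited. COL15A1, a basement membrane collagen, was at 7.73, 6.76 and 11.1 TPM under sgRosa and 0.945, 1.28 and 1.19 under sgPOU2F3 in EV cells, and 11.2, 9.53 and 9.55 and 0.844, 2.12 and 1.80 in WT cells. It fell by 2.13 in EV cells and 2.13 in WT cells, with an interval of the difference of -0.67 to 0.67. DIRAS2, a small GTPase, went from 3.95, 4.75 and 5.68 to 0.591, 0.393 and 0.597 TPM in EV cells and from 16.4, 15.1 and 16.6 to 2.86, 4.94 and 3.73 in WT cells, an interval of -0.46 to 0.62. CREB3L2, RORB, BTBD11 and ADAMTS3 had differences of 0.20, 0.20, 0.21 and 0.32, and WT sgPOU2F3 replicate 1 was the lowest of its group for CREB3L2, BTBD11 and ADAMTS3. With median-ratio scaling the difference of CREB3L2 became 0.50 (limma adjusted p = 0.0469) and that of ADAMTS3 0.61 (adjusted p = 0.0193).

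Of the 4 kept rises, IFITM2 was given above. MME, the cell surface peptidase neprilysin, was at 0.926, 0.984 and 1.41 TPM under sgRosa and 3.99, 4.43 and 4.64 under sgPOU2F3 in EV cells, and 1.96, 1.21 and 1.45 and 6.91, 7.29 and 6.85 in WT cells. The sgPOU2F3 libraries were above the sgRosa libraries in each line without overlap, and the rises were 1.35 and 1.67 log2 with an interval of the difference of -0.13 to 0.76. DEPP1, an autophagy regulator, went from 2.96, 2.62 and 4.36 to 9.13, 9.66 and 8.77 TPM in EV cells and from 2.15, 2.87 and 2.53 to 6.83, 7.58 and 8.59 in WT cells, an interval of -0.47 to 0.55. CASP4, an inflammatory caspase, went from 34.3, 32.4 and 26.8 to 90.9, 86.6 and 97.7 TPM in EV cells and from 25.2, 31.5 and 31.2 to 71.6, 59.3 and 53.6 in WT cells, and its difference of -0.49 became -0.60 (limma adjusted p = 0.0319) without WT sgPOU2F3 replicate 1. The 3 responses that were larger in WT cells, named for their small number after the values were seen, were SOSTDC1, CXCL13 and ITGA4. SOSTDC1, a BMP and Wnt antagonist, was at 0.389, 0.586 and 0.511 TPM under sgRosa and 4.98, 6.29 and 6.41 under sgPOU2F3 in EV cells, and 0.261, 0.577 and 0.569 and 18.8, 15.5 and 13.6 in WT cells, a difference of 1.33 (adjusted p = 0.00267). CXCL13, a B-cell chemokine, went from 0, 0.222 and 0.521 to 3.17, 1.10 and 1.37 TPM in EV cells and from 0.226, 0.434 and 0.252 to 7.09, 6.56 and 7.49 in WT cells, a difference of 1.47. ITGA4, an integrin subunit, fell by 1.19 and 2.01, and its difference did not pass without WT sgPOU2F3 replicate 1 (adjusted p = 0.0666). MGP, a mineralization inhibitor also chosen after its values were seen, was at 0.548, 0.259 and 0.607 TPM under sgRosa and 27.6, 23.3 and 29.8 under sgPOU2F3 in EV cells, and 0.262, 0.5 and 0.362 and 44.2, 35.7 and 35.3 in WT cells. It rose by 4.25 and 4.84, a difference of 0.59 that was not called (adjusted p = 0.0833).

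A last group changed by at least 2-fold in WT cells and not, or the other way, in EV cells. Besides TFF3 and BMX, which rose, only the 4 falls with the largest differences are described. In each of these the WT sgRosa libraries lay above every EV sgRosa library, a choice by size of difference that can favour such genes. EGR1, an immediate early factor, was at 10.999, 8.39 and 9.92 TPM under sgRosa and 31.2, 54.7 and 35.9 under sgPOU2F3 in EV cells, and 79.6, 70.5 and 62.6 and 15.9, 41.5 and 52.6 in WT cells. FLNC, an actin crosslinker of muscle, was at 2.36, 2.19 and 3.75 TPM under sgRosa and 10.7, 27.4 and 11.2 under sgPOU2F3 in EV cells, and 9.95, 8.57 and 9.51 and 1.32, 4.05 and 4.85 in WT cells. TGFB1, the founding TGF-beta ligand, was at 21.1, 15.9 and 30.1 TPM under sgRosa and 35.2, 64.1 and 37.6 under sgPOU2F3 in EV cells, and 70.4, 53.04 and 54.8 and 8.07, 21.1 and 35.7 in WT cells. In each, WT sgPOU2F3 replicate 1 was the lowest of its group. Differences were -3.00, -3.44 and -2.61, and -2.70 for PRAG1, a pseudokinase. Without that library the WT falls of EGR1, FLNC and PRAG1 were -0.58, -0.93 and -0.67 and no longer passed (limma adjusted p = 0.065, 0.0609 and 0.0908), while the differences of responses still did.

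Markers of most other cell types listed were largely under 1 TPM, but those of ciliated cells were not. Of 18 neuroendocrine markers 11 were under 1 TPM in all 12 libraries, NEUROD1 and CHGA among them, and none of the 6 tested had a called difference. Their summed level of 784 to 1008 TPM was mostly UCHL1, a deubiquitinase of neurons and many tumours. Of 14 lymphoid and myeloid markers 8 were under 1 TPM throughout, CD3E and MS4A1 were listed at 0, and none of 5 tested was called (24.4 TPM summed at most in EV sgPOU2F3, 44.1 in WT sgRosa). Of 8 endothelial markers 7 were under 1 TPM, and ESAM, the 1 tested, was lower. Of 12 secretory and gut markers 9 were under 1 TPM, SCGB1A1 and TFF2 at 0, and TFF3 was the 1 called. Of 11 ciliated markers 2 were under 1 TPM throughout, and 9 tested gave 2 higher and 1 lower difference. Their summed level was 213 to 270 TPM in EV sgRosa and 93.2 to 237 in WT sgPOU2F3 libraries. Of 10 markers of embryonic kidney cells, in which lentivirus is made, 6 were under 1 TPM, and 1 of 4 tested was higher. These summed to 149 to 188 TPM in EV sgRosa and 245 to 257 in WT sgRosa libraries. Of 6 alveolar markers tested 1, CAV1, rose in EV cells. The summed level of the list was 46.3 to 65.96 TPM in EV sgRosa, 157 to 179 in EV sgPOU2F3, 81.4 to 112 in WT sgRosa and 50.7 to 90.5 in WT sgPOU2F3 libraries, most of it CAV1 in EV sgPOU2F3 (136, 131 and 126 TPM). CAV1 and PDPN, which many adherent cells also express, were the 2 lower of 6 tested, and their part in the other results was not tested.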

How the data were processed

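RNA-seq of poly(A) RNA gave TPM per gene, deposited by the authors and made with kallisto on hg38, per the submitters' processing notes. Its version, transcripts and strandedness: not given in the sources used here. Of 19875 entries 130 that named no gene (103 fragments and 27 dates, 1.64% to 2.42% of TPM) were left out. The 6 libraries with a mutant cDNA entered only 1 alternative. Groups followed the labels. Genes averaging 1 TPM or more were fitted on log2(TPM + 1) with limma 3.58.1 (R 4.3.3), 1 coefficient per group, variance trend on, two-sided Benjamini-Hochberg adjustment over all genes tested, called under 0.05. This scale understates changes of low genes. Code was tested on simulated data. Members and lists were chosen with earlier results of these data known. Named genes were POU2F3 and its partners, the 12 largest differences each way (at least 5 TPM in a group, passing with and without WT sgPOU2F3 replicate 1), up to 6 kept rises and falls (2-fold or more in both lines, 95% interval of the difference within 1 log2), up to 4 WT-only responses each way and up to 4 members per list by p. Others, among them NUAK2, AJUBA, CTGF, ANKRD1, MMP7, FN1, VIM, TNFAIP3, TAS1R3, TAS2R3, TAS2R4, TAS2R5, TAS2R13, TAS2R42, GNAT3, GNG13, TRPM5, PLCB2, AVIL, SH2D6, IL17RB, DCLK1, CHAT, ASCL2, UCHL1 and B2M, were chosen after their values were seen. Coordinates are from GENCODE (GRCh38) and sequences from RefSeq (GRCh38.p14). Alternatives covered the pseudocount, filter, scaling, length trend, variance model, replicate block, libraries left out and set threshold. Results for some listed genes are not reported here.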

Additional observations from a re-analysis of the deposited data

Results flagged for a closer look

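The response to sgPOU2F3 differed between the EV and WT lines by a test of the difference itself (limma) for 766 genes as higher in WT cells and 1599 as lower, which is what the design was built to measure. Among the genes named above, the differences with an EV rise were -5.15 for FOSL1, -4.74 for ETS1, -4.53 for TGFBI, -4.51 for LIF, -4.48 for ITGA3, -4.34 for PLAU, -4.29 for CLDN1, -4.28 for TNFRSF12A, -4.24 for CLDN6, -4.20 for THBS1, -4.14 for EPHA2 and -4.13 for TNFRSF6B. The higher ones were 3.02 for TFF3, 2.58 for ANXA13, 2.38 for RTL9, 2.32 for TAS2R60, 2.30 for BIK, 2.13 each for CLPSL2, RGS13 and MSTN, 2.11 for SELENOP, 2.04 for RGS21, 2.03 for CHAD, 1.98 for B3GALT2 and 1.77 for BMX. Genes that fell in WT cells had -3.44 for FLNC, -3.00 for EGR1, -2.70 for PRAG1 and -2.61 for TGFB1.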

How the results depend on the processing

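The rises were called smaller in WT cells in 80.6% to 96.7% of cases under every alternative run, whereas the falls and the gene counts moved with the scaling and with single libraries, and the cause was not tested. Leaving out each library in turn gave 88.3% to 93.2% of rises and 24.7% to 50.0% of falls called smaller, median WT responses of -0.03 to 0.12 and -0.85 to -0.59, differences higher for 491 to 906 genes and lower for 939 to 2720, EV rises of 1269 to 2225 genes and falls of 1682 to 3869, WT rises of 141 to 999 and falls of 213 to 7164, and sgRosa gaps higher for 624 to 2216 and lower for 608 to 1459. With median-ratio scaling there were 1757 higher differences, 2589 EV rises, 2731 WT rises, 2473 WT falls, 72.8% of falls smaller, and set medians of 0.30 and -0.37. Quantile normalization gave 2348 higher differences, 2720 WT rises, 2532 WT falls, 2027 lower sgRosa gaps, 74.2% of falls smaller and a median of 0.36 for the rises. Array weights gave 2137 higher and 3730 lower differences, 3098 EV rises, 5575 EV falls, 4539 and 2843 sgRosa gaps and 74.7% of falls smaller. Removing the length trend gave 2026 higher differences, 2758 EV rises, 2634 WT rises, 2253 WT falls, 1819 and 1700 sgRosa gaps, 74.7% of falls smaller and medians of 0.31 and -0.37. A spread from all 18 libraries gave 230 and 694 differences, 1026 and 1295 EV changes, 201 and 779 WT changes, 623 and 355 sgRosa gaps and 19.9% of falls smaller. Without WT sgPOU2F3 replicate 1 and with median-ratio scaling, a setting chosen after seeing the data, there were 1781 higher differences, 3474 EV rises, 893 WT falls, 2562 and 2358 sgRosa gaps, 82.6% of falls smaller and medians of 0.29 and -0.38. A mean of at least 5 TPM left 759 higher sgRosa gaps. Sets at 1.5-fold and 4-fold gave 23.2% and 74.3% of falls smaller, and 4-fold rises a median of 0.32. Pseudocount 5 turned the difference of DIRAS2 to -0.43.

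Replicate numbers did not pair the libraries: over 18 same-number pairs the deviations correlated at -0.568 to 0.589, and 5 pairs were over 0.1. In 4 of the 18 the same number gave the best match among the replicates of the other group. With the replicate block there were 546 higher and 1174 lower differences. Of 135 called differences among the named genes, 100 (all 18 libraries) to 135 passed in the same direction under each alternative, counting only genes tested there. Read depth was unknown, and the precision of low values could not be given.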

Other observations

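Genes of protein synthesis and growth were also read. Of 30 ribosome biogenesis genes, 24 rose in EV cells and 10 in WT cells (1 without WT sgPOU2F3 replicate 1), and 16 differences were lower and none higher, against 12.1% of all genes called lower. With median-ratio scaling 10 were lower and 17 genes rose in WT cells. NOP2, an rRNA methyltransferase, rose by 0.96 log2 in EV cells and had -0.12 in WT cells, a difference of -1.08 (limma adjusted p = 0.000882), and RRS1, a large-subunit assembly factor, had -1.32. Among 77 cytosolic ribosomal proteins 29 differences were higher, against 5.8% of all genes, and none lower. In WT cells 52 rose, against 7.04% of all genes. In EV cells 10 fell, which is not above the 20.8% of all genes that fell there. The higher differences were 25 without WT sgPOU2F3 replicate 1, where 4 rose in WT cells, and 10 with median-ratio scaling, where 13.3% of all genes were called higher. RPS3A went from 2193, 2515 and 2229 to 1609, 1258 and 1503 TPM in EV cells and from 1648, 2067 and 2001 to 3193, 2478 and 2499.8 in WT cells. The WT sgPOU2F3 libraries of RPS3A lay above the WT sgRosa libraries where the share of all ribosomal protein transcripts was also highest, and the part of that share in other results was not tested.

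Serine synthesis and ATF4 target genes gave 7 higher differences of 22, against 5.8% of all genes, and none lower. With median-ratio scaling they gave 8 and 1, against 13.3% and 14.7% of all genes. PHGDH, the first enzyme of serine synthesis, went from 239, 259 and 212 to 91.8, 93.3 and 118 TPM in EV cells and from 282, 293 and 319 to 297, 275 and 270.0 in WT cells, a difference of 1.14 (limma adjusted p = 0.000774). ATF4, the stress-response factor that drives such genes, fell by 0.54 in EV cells and had 0.31 in WT cells. Of 23 p53 targets 6 differences were lower and 2 higher, against 12.1% and 5.8% of all genes. With median-ratio scaling 6 were lower and 4 higher, against 14.7% and 13.3%. CDKN1A, the cell cycle inhibitor p21, rose by 1.22 in EV cells and had -0.19 in WT cells (difference -1.41, adjusted p = 0.00237), and TP53INP1 was one of the higher ones (1.68). In the BCL2 family BAK1 and BAX, which permeabilize mitochondria, had -0.86 and -0.83, against 2.30 for BIK. Of 13 members tested 1 difference was higher and 3 lower, against 5.8% and 12.1% of all genes. These counts turned to 3 and 2 with median-ratio scaling.

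Mitotic genes gave 8 higher and 3 lower differences of 28, against 5.8% and 12.1% of all genes, HMMR at 0.79 and PLK1 at -0.77. DNA replication genes gave 1 and 4 of 33, near the 12.1% of all genes called lower, with TK1, thymidine kinase, at -0.94. In eicosanoid synthesis, a tuft cell output, 2 of 10 differences were higher, against 5.8% of all genes. They were PLA2G4A, the phospholipase that releases arachidonic acid (1.52), and PTGS2, or COX-2 (1.28). PLA2G4A held a gap of -2.33 between the lines under sgRosa. Among 27 housekeeping genes 4 differences were lower and 1 higher, against 12.1% and 5.8% of all genes, and with median-ratio scaling 1 and 1. EIF4A2, a translation factor, was the higher one (0.65).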
